A study of Homo sapiens with 2 samples.

Results

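The genes described here set how much of the initiation factor eIF2 is phosphorylated, or can stand in for it. They are the 4 kinases of the eIF2 alpha subunit (EIF2AK1, EIF2AK2, EIF2AK3 and EIF2AK4), the GCN2 regulators GCN1 and IMPACT, the phosphatase subunits PPP1R15A and PPP1R15B, and the initiator tRNA factors EIF2A and EIF2D. They were taken by symbol, and all 10 were found, once each, among the 58302 genes of the deposited table. HL60 is a long-established line of human promyelocytic leukemia cells. The cells are a stable HL60 derivative with a Tet-Off transgene for EIF2S3, the eIF2 gamma subunit, and gave 1 RNA-seq library without doxycycline, labelled DOX(-), and 1 with it, labelled DOX(+). In a Tet-Off system the transgene is on without doxycycline and off with it. Both libraries therefore come from cells that carry the transgene, and transgene state cannot be told apart from doxycycline itself.

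eIF2 brings the initiator methionyl-tRNA to the small ribosomal subunit. When a kinase phosphorylates its alpha subunit, eIF2 holds back its own exchange factor, eIF2B. General initiation then slows, while messages with certain upstream reading frames, such as that of ATF4, are translated better. HRI (EIF2AK1) responds to low heme and to mitochondrial stress, PKR (EIF2AK2) to double-stranded RNA, PERK (EIF2AK3) to unfolded protein in the endoplasmic reticulum, and GCN2 (EIF2AK4) to amino acid shortage. Protein phosphatase 1 (PP1) removes the phosphate when a PPP1R15 subunit directs it to eIF2. Much of this control acts on protein activity, which RNA levels do not show. In blood cells the pathway is known above all from HRI in red cell precursors.

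Levels are FPKM, fragments per kilobase of transcript scaled to the library total, so levels of different genes can be compared. The libraries held 16577653 fragments in DOX(-) and 18521269 in DOX(+). EIF2S3 itself was listed at 132.9 FPKM in DOX(-) against 126.2 FPKM in DOX(+), which is little higher where the labels put the transgene on, so the libraries are named by their labels throughout. The azurophil granule gene ELANE was high, at 396.4 FPKM in DOX(-) against 299.4 FPKM in DOX(+), and 4 of 6 promyelocyte markers had a log2 ratio above 0. MPO, another defining marker of promyelocytes, was at only 0.274 FPKM in DOX(-) against 0.469 FPKM in DOX(+). All 4 epithelial markers were at 0 in both libraries, as were 3 of 4 T cell markers and 2 of 3 fibroblast markers. Of 3 B cell markers, CD79A was at 1.66 FPKM in DOX(-) against 0.709 FPKM in DOX(+), higher by the 1.5-fold rule given below, while MS4A1 was at 0 in both. The part of these markers in the results was not tested. The mitochondrial genome gave 22.5% of summed FPKM in DOX(-) and 27.7% in DOX(+). In bulk RNA, fewer cells of a type and less RNA per cell cannot be told apart.

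Promoter sequences are shown for the members whose window held a searched element. Such elements act in the stress and interferon circuits that the kinases and phosphatase subunits belong to. Sequences are RefSeq's on GRCh38.p14, 5′ to 3′ on the gene's own strand, with the matched element in capitals. Windows from 250 bases before to 50 bases after the RefSeq start were found for 9 of the 10 members. The printed stretches of EIF2AK2 and EIF2A lie inside the gene spans given below, which begin upstream of that start. EIF2AK1 had none in that table. Both strands were searched.
PPP1R15A (chr19:48872241-48872390, plus strand): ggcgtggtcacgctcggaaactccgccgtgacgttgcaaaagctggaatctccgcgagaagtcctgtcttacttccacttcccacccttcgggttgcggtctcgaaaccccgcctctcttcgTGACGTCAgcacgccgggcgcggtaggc
PPP1R15B (chr1:204411908-204412067, minus strand): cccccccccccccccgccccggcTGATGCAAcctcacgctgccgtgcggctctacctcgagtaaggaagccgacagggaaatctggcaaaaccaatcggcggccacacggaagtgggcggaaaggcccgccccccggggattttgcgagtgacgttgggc
EIF2AK2 (chr2:37156967-37156996, minus strand): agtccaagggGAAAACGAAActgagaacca
EIF2A (chr3:150546705-150546734, plus strand): aaacaCCAATTCGCTGTCTCCACGcatgag

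The PPP1R15A window held the cAMP response element TGACGTCA, a palindrome that reads alike on both strands, at -58 to -51, counted with the start base as 0. This element was in 1.85% of 35116 promoter windows. The PPP1R15B window held TGATGNAA, the core of the C/EBP-ATF response element, at -227 to -220, and 3.62% of windows held it. The EIF2AK2 window held GAAANNGAAA, the core of the interferon-stimulated response element, at -6 to 3. The EIF2A window held the same core on its other strand at -3 to 6 (not printed), and 3.57% of all windows held it. The EIF2A window also held the endoplasmic reticulum stress response element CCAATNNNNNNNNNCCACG at -77 to -59, found in 0.0769% of windows. EIF2A shares exonic bases with SERP1 on the other strand, and whether the element acts on either gene was not tested. None of these matches overlapped another. A match is a description of letters and not of a bound site.

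With 1 library per condition there is no test. A gene counts as different when FPKM + 1 differs at least 1.5-fold, a log2 ratio of 0.585, among the 11525 tested genes, those that reached 1 FPKM in at least 1 library. All 10 members passed that filter, and every ratio is DOX(-) over DOX(+). By this rule 0 of 10 members were higher in DOX(-) and 0 were lower. Over all tested genes, 3.11% were higher (358 genes) and 4.06% lower (468 genes). With FPKM rescaled to equal totals outside the mitochondrial genome, 298 tested genes were higher and 609 lower, and the members' counts stayed at 0. The median log2 ratio of the members was 0.05, against -0.02 over all tested genes, and under that rescaling it was -0.02, against -0.08 over all tested genes. As deposited, 6 members lay above 0 and 4 below.

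**Figure D1:**
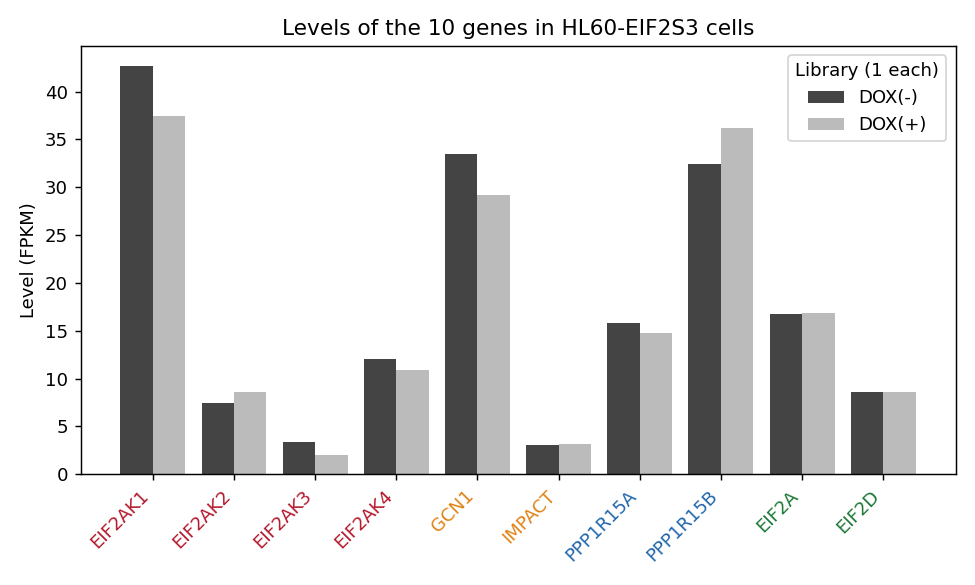
Level of each of the 10 genes in FPKM (bars from 0), with the DOX(-) library dark and the DOX(+) library light, 1 library each. Symbols are coloured by role: kinases red, GCN2 regulators orange, PP1 subunits blue, initiator tRNA factors green. EIF2AK1 is highest in both libraries, and EIF2AK3 and IMPACT are the 2 lowest in both.

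Levels of the 10 genes spanned 14.1-fold in DOX(-) and 19.0-fold in DOX(+). EIF2AK1 was the highest in both, at a level above that of 93.0% of tested genes in DOX(-) and 92.2% in DOX(+). After it in DOX(-) came GCN1, PPP1R15B, EIF2A, PPP1R15A, EIF2AK4, EIF2D, EIF2AK2, EIF2AK3 and IMPACT. The order in DOX(+) differed only in that 3 neighbouring pairs changed places: GCN1 with PPP1R15B, EIF2D with EIF2AK2, and EIF2AK3 with IMPACT. With no replicates, it cannot be said which neighbours differ beyond the spread between cultures.

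HRI made up most of the kinase RNA in these cells. EIF2AK1 (chromosome 7, 6022244 to 6059230, minus strand, GRCh38 as for all genes below) was at 42.6 FPKM in DOX(-) against 37.5 FPKM in DOX(+), a log2 ratio of 0.18. That was 65.1% of the summed FPKM of the 4 kinases in DOX(-) and 63.6% in DOX(+). In red cell precursors HRI matches globin synthesis to heme, and in these libraries the erythroid markers summed to only 1.37 FPKM in DOX(-) against 3.51 FPKM in DOX(+), with HBB at 0 in both. Nearly all of that sum was HBA1, at 1.33 FPKM in DOX(-) against 3.36 FPKM in DOX(+), which was lower in DOX(-) by the rule of size. EIF2AK1 shares 532 exonic bases with AIMP2 on the other strand, which was at 21.5 FPKM in DOX(-) against 26.3 FPKM in DOX(+). Strand use in counting was not given in the sources used here, so reads in the shared bases cannot be assigned.

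GCN2 was second among the kinases and nearly constant as a share of them. EIF2AK4 (chromosome 15, 39934146 to 40035591, plus strand) was at 12.1 FPKM in DOX(-) against 10.9 FPKM in DOX(+), a log2 ratio of 0.14. It made up 18.4% of the kinase sum in DOX(-) and 18.5% in DOX(+). Its exons overlap those of no other gene model.

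PKR was the 1 kinase listed lower in DOX(-). EIF2AK2 (chromosome 2, 37099210 to 37157065, minus strand), an interferon-induced gene, was at 7.47 FPKM in DOX(-) against 8.62 FPKM in DOX(+), a log2 ratio of -0.18. Its share of the kinase sum was 11.4% in DOX(-) and 14.6% in DOX(+). A log2 ratio at least this far from 0 was common, at 46.9% of tested genes.

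PERK was the least abundant kinase in both libraries and the member with the largest ratio. EIF2AK3 (chromosome 2, 88556741 to 88627576, minus strand) was at 3.33 FPKM in DOX(-) against 1.97 FPKM in DOX(+), a plain ratio of 1.69 and a log2 ratio of 0.55, short of the 0.585 of the rule. Its share of the kinase sum was 5.08% in DOX(-) and 3.34% in DOX(+). By plain FPKM, 1 of 10 members was at least 1.5-fold higher in DOX(-), against 5.79% of all tested genes and 5.04% of protein-coding genes with a mean level from 2 to 5 FPKM. Log2 ratios at least as far from 0 as that of EIF2AK3 were found in 8.42% of tested genes. The antisense gene AC104134.1, which shares 781 exonic bases with it, was at 0 in DOX(-) and 0.0927 FPKM in DOX(+).

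Summed over the 4 kinases, the level was 65.5 FPKM in DOX(-) against 58.9 FPKM in DOX(+). The ratio of these sums was 1.11, and 1.06 with FPKM rescaled to equal totals outside the mitochondrial genome. Fragments pooled over the 4 kinases on their shortest transcripts gave a counting interval of 0.998 to 1.26. That pooled ratio weights each kinase by transcript length, unlike the ratio of FPKM sums. EIF2S1, the alpha subunit that all 4 phosphorylate, was at 31.8 FPKM in DOX(-) against 35.0 FPKM in DOX(+). Kinase RNA per EIF2S1 RNA was thus 2.06 in DOX(-) and 1.68 in DOX(+). This is a quotient of RNA levels from 1 library each and has no error between cultures.

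GCN1 and IMPACT act on GCN2 in opposite ways. GCN1 sits on ribosomes and is needed for GCN2 to be activated, and IMPACT competes with GCN2 for GCN1. GCN1 (chromosome 12, 120127203 to 120194710, minus strand) was at 33.5 FPKM in DOX(-) against 29.2 FPKM in DOX(+), a log2 ratio of 0.19. IMPACT (chromosome 18, 24426616 to 24453535, plus strand) was at 3.02 FPKM in DOX(-) against 3.19 FPKM in DOX(+), a log2 ratio of -0.06. The activator was thus listed far above both partners in each library. GCN1 stood at 2.77 times the EIF2AK4 level in DOX(-) and 2.68 times in DOX(+), and IMPACT at 9.01% of the GCN1 level in DOX(-) and 10.9% in DOX(+).

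The PPP1R15 subunits differed in opposite directions, each by a small amount. PPP1R15A, or GADD34, is the stress-induced subunit and a known target of ATF4 and CHOP, and PPP1R15B, or CReP, is the constitutive one. PPP1R15A (chromosome 19, 48872392 to 48876057, plus strand) was at 15.8 FPKM in DOX(-) against 14.8 FPKM in DOX(+), a log2 ratio of 0.09. PPP1R15B (chromosome 1, 204403387 to 204411791, minus strand) was at 32.5 FPKM in DOX(-) against 36.2 FPKM in DOX(+), a log2 ratio of -0.15. The constitutive subunit was the more abundant in both libraries, with PPP1R15A at 0.485 of its level in DOX(-) and 0.409 in DOX(+).

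PPP1R15B is the only member with a single annotated transcript, of 5227 bases, so its FPKM can be turned back into fragments. The values gave 2813 fragments in DOX(-) and 3502 in DOX(+). The ratio of FPKM was 0.897, with a 95% counting interval of 0.854 to 0.943. This interval covers counting error in these libraries and not the spread between cultures.

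The catalytic subunits of PP1 serve many holoenzymes beside those of PPP1R15. PPP1CA was at 20.6 FPKM in DOX(-) against 19.5 FPKM in DOX(+), and PPP1CC at 27.3 FPKM in DOX(-) against 27.9 FPKM in DOX(+). PPP1CB, at 12.5 FPKM in DOX(-) against 16.4 FPKM in DOX(+), had the largest difference of the 3, a log2 ratio of -0.36. None of the 3 passed 1.5-fold, against 3.11% of all tested genes higher and 4.06% lower. Summed catalytic RNA was 60.5 FPKM in DOX(-) against 63.9 FPKM in DOX(+). The PPP1R15 sum was 48.2 FPKM in DOX(-) against 51.0 FPKM in DOX(+). Kinase RNA per PPP1R15 RNA was 1.36 in DOX(-) and 1.16 in DOX(+).

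EIF2A and EIF2D were the members listed at the most equal levels. Both can bring initiator tRNA to the ribosome without eIF2 in reconstituted systems, and EIF2D also helps to recycle small subunits. EIF2A (chromosome 3, 150546678 to 150584242, plus strand) was at 16.8 FPKM in DOX(-) against 16.9 FPKM in DOX(+), a log2 ratio of -0.01. EIF2D (chromosome 1, 206571292 to 206612463, minus strand) was at 8.61 FPKM in DOX(-) against 8.55 FPKM in DOX(+), a log2 ratio of 0.01. Of tested genes, 97.8% lay at least as far from 0 as EIF2A and 96.9% as EIF2D. Counting intervals of the plain ratio on the shortest transcripts were 0.726 to 1.36 for EIF2A and 0.701 to 1.47 for EIF2D. On the longest transcripts they were 0.891 to 1.11 for EIF2A and 0.911 to 1.11 for EIF2D. How near to equal these 2 genes are within counting error thus depends on which transcripts are used, which was not tested. The signs of both turned with the scaling between libraries. EIF2A shares 153 exonic bases with SERP1 on the other strand, at 17.7 FPKM in DOX(-) against 17.8 FPKM in DOX(+).

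Set against the eIF2 alpha subunit, the bypass factors were the scarcer RNAs. EIF2A stood at 0.527 of the EIF2S1 level in DOX(-) and 0.482 in DOX(+), and EIF2D at 0.271 in DOX(-) and 0.245 in DOX(+). MCTS1 and DENR form a pair that resembles EIF2D in structure and acts in reinitiation after upstream reading frames. MCTS1 was at 4.15 FPKM in DOX(-) against 4.44 FPKM in DOX(+). DENR was at 34.2 FPKM in DOX(-) against 43.2 FPKM in DOX(+), a log2 ratio of -0.33, and EIF5B, which joins the ribosomal subunits, had a log2 ratio of -0.49. All 3 lay below 0, where 6152 of all 11525 tested genes lay. None of the 3 passed 1.5-fold, against 3.11% of all tested genes higher and 4.06% lower. EIF2D was at 0.01, and its sign turned with the scaling. DENR was thus 3.97 times the EIF2D level in DOX(-) and 5.05 times in DOX(+).

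**Figure D2:**
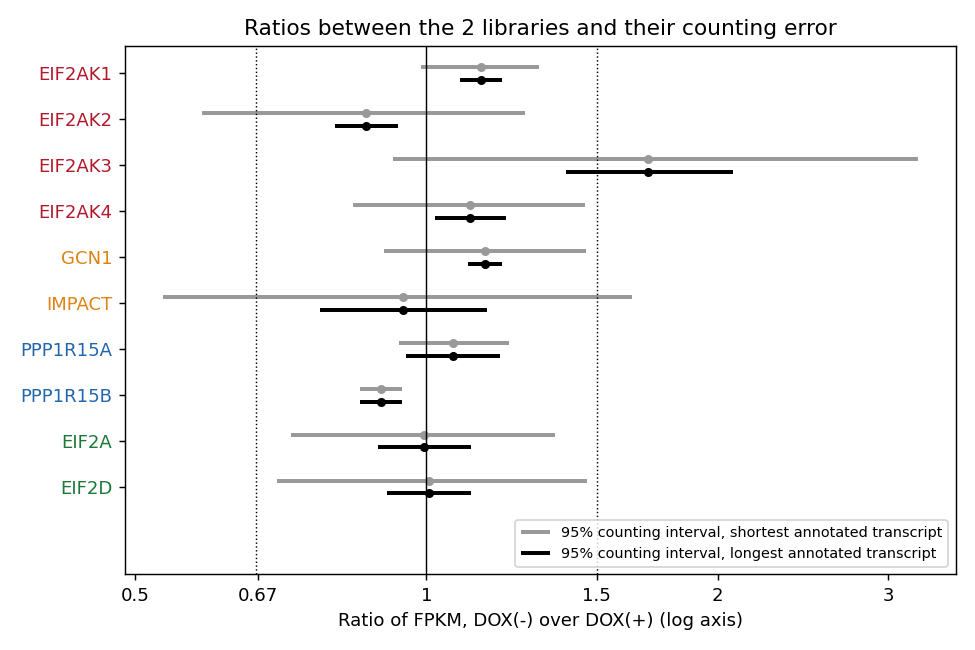
Ratio of FPKM, DOX(-) over DOX(+), on a log axis, with 95% counting intervals from fragments on the shortest (grey) and the longest (black) annotated transcript; dotted lines mark 1.5-fold. Only the PPP1R15B interval leaves out 1 under both lengths, which are the same for this gene because it has 1 annotated transcript. EIF2AK3 has the largest ratio, 1.69.

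How firm these ratios are against counting error depends on the transcript the fragments came from. The other 9 members have from 2 annotated transcripts (PPP1R15A) to 16 (EIF2A), and their FPKM does not give fragments directly. On the shortest transcript, which gives the fewest fragments, 0 of 10 intervals lay wholly above 1 (7.6% of tested genes) and 1 wholly below (8.52%), that of PPP1R15B. For PPP1R15B the shortest transcript is also the longest, so its interval could not differ between them. On the longest, 4 lay wholly above 1 (18.1% of tested genes), those of EIF2AK1, EIF2AK3, EIF2AK4 and GCN1, and 2 wholly below (23.4%), those of EIF2AK2 and PPP1R15B. For EIF2AK3 the shortest transcript, of 534 bases, gives 29.5 fragments in DOX(-) and 19.5 in DOX(+), and an interval of 0.924 to 3.22. The longest, of 4646 bases, gives 257 fragments in DOX(-) and 169 in DOX(+), and an interval of 1.39 to 2.08. Which transcripts these cells use was not tested.

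**Figure D3:**
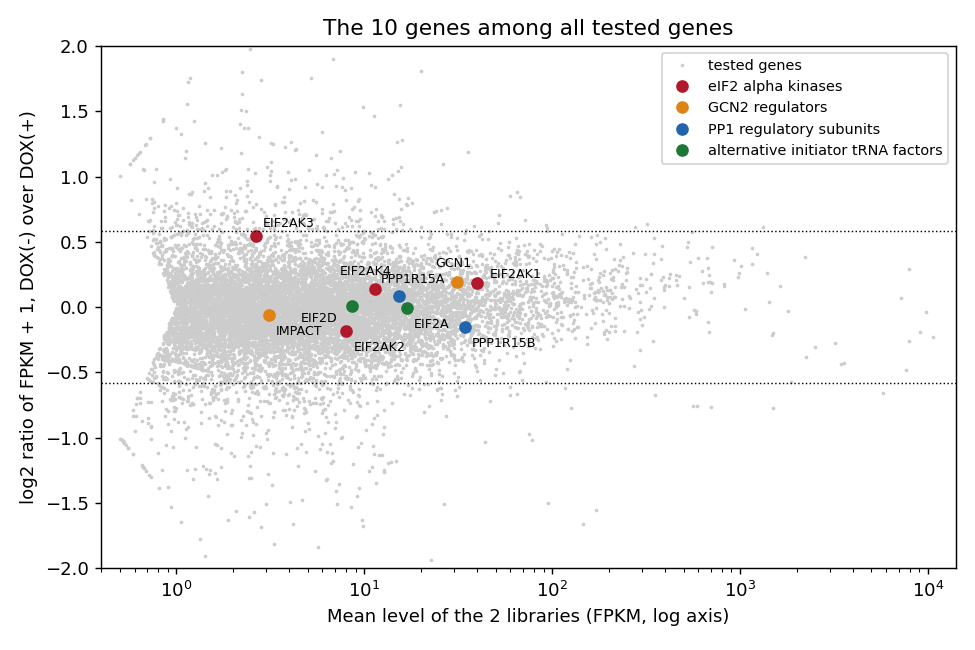
Log2 ratio of FPKM + 1, DOX(-) over DOX(+), against the mean level of the 2 libraries (log axis) for all tested genes (grey) and the 10 members (coloured by role); dotted lines mark 1.5-fold, and 35 genes lie beyond the vertical axis. All 10 members lie between the dotted lines, EIF2AK3 nearest to one.

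Of the upstream regulators of the kinases, none of the 5 for HRI, 4 for PKR and 4 for PERK passed 1.5-fold on the FPKM + 1 scale. By that rule 3.11% of all tested genes were higher and 4.06% lower, so a count of 0 in lists this short says little. DELE1, the messenger of mitochondrial stress to HRI, was at 6.68 FPKM in DOX(-) against 5.58 FPKM in DOX(+). The chaperones that hold HRI differed in sign, with HSPA8 at -0.33, HSP90AA1 at -0.25 and HSP90AB1 at 0.17 on the log2 scale. Among PKR regulators, log2 ratios were -0.15 for the inhibitor DNAJC3, -0.15 for the inhibitor TARBP2, -0.01 for the activator PRKRA and 0.05 for ADAR, which edits double-stranded RNA.

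Of the endoplasmic reticulum genes beside PERK, HSPA5, the chaperone BiP that binds its lumenal domain, was at 417.7 FPKM in DOX(-) against 356.4 FPKM in DOX(+). The co-chaperone gene DNAJB9 was at 3.23 FPKM in DOX(-) against 2.09 FPKM in DOX(+), a plain ratio of 1.55 and a log2 ratio of 0.45 on FPKM + 1. SEL1L, of the degradation machinery, had a log2 ratio of -0.00 and DNAJC3, which also acts on PERK, is given above. Of the 7 genes of the ribosomal stalk and GCN2 coactivators, the stalk genes RPLP2 and RPLP0 were highest, at log2 ratios of 0.41 and 0.39. The lowest were MAP3K20, a kinase of the stalled-ribosome response, at -0.24 and ABCF1 at -0.17. None of the 7 passed 1.5-fold, against 3.11% of all tested genes higher and 4.06% lower.

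The substrate side lay close to equal. Of 10 genes of eIF2 and its exchange machinery, 0 passed 1.5-fold, against 3.11% of all tested genes higher and 4.06% lower. Of the 10, 4 lay above 0 and 6 below, and the median log2 ratio was -0.01. The largest differences were those of EIF2B3 (0.31), EIF2B5 (0.19), EIF2B1 (-0.17) and EIF2S1 (-0.13).

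Some genes listed as downstream of eIF2 phosphorylation passed the 1.5-fold rule. Of 26 ATF4 and CHOP target genes, 20 reached the filter, and 17 of these lay above 0 with a median log2 ratio of 0.35, where 5373 of all 11525 tested genes lay above 0. By the rule of size, 5 were higher in DOX(-) and 0 lower, against 3.11% and 4.06% of all tested genes. They were the mTORC1 inhibitors SESN2 (1.01) and DDIT4 (0.85), the transsulfuration enzyme gene CTH (0.71), the lipoprotein receptor gene VLDLR (0.61) and CHAC1 (0.69). CHAC1, a glutathione-degrading enzyme gene named after its value was seen, was low, at 1.31 FPKM in DOX(-) against 0.435 FPKM in DOX(+). The log2 ratio of PPP1R15A, another known target of the same factors, was 0.09, below that median. Since results on these libraries were known when the list was drawn up, neither its counts nor its median is independent evidence of a direction. The place of PPP1R15A below the median is likewise only a description.

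Among 5 other messages with regulatory upstream reading frames, a feature that both PPP1R15 genes share, 2 were at least 1.5-fold higher in DOX(-) and 0 lower, against the same 3.11% and 4.06%. SLC35A4 was at 15.3 FPKM in DOX(-) against 7.60 FPKM in DOX(+). DDIT3, which encodes CHOP, had a log2 ratio of 1.05 and ATF4 one of 0.48. ATF5 went the other way, at 4.88 FPKM in DOX(-) against 7.37 FPKM in DOX(+), a plain ratio of 0.662. Its log2 ratio of -0.51 on FPKM + 1 fell short of the rule, as that of EIF2AK3 did. RNA levels do not show how well these messages were translated, and the phosphorylation of eIF2 was not measured here.

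**Figure D4:**
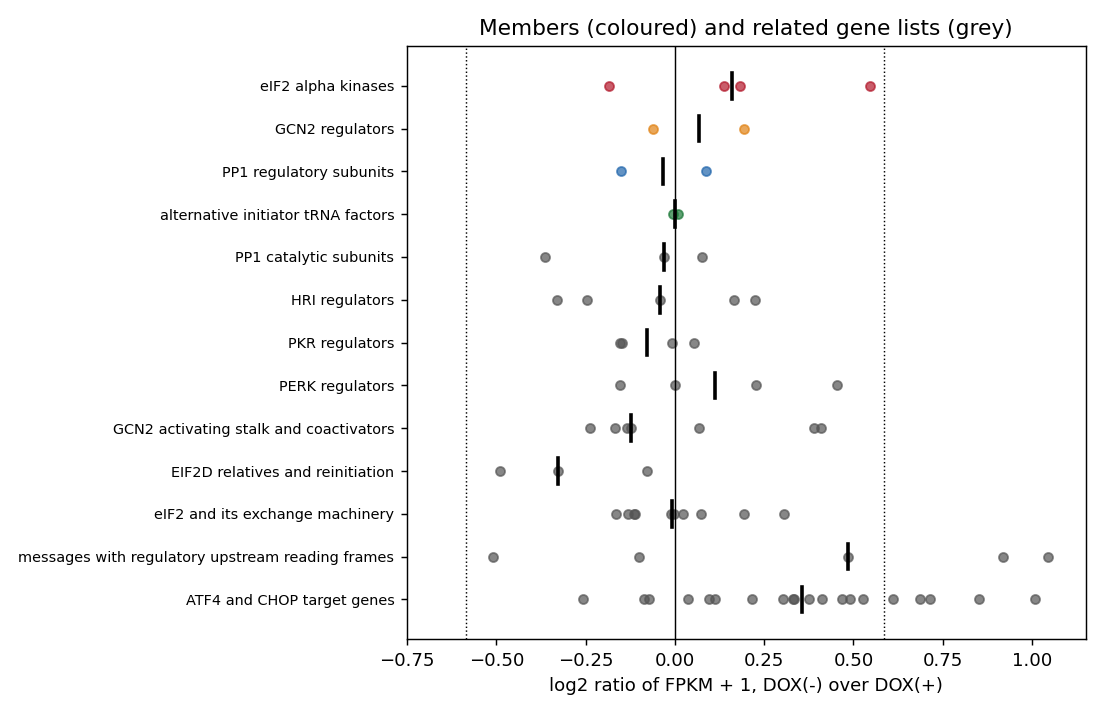
Log2 ratio of FPKM + 1, DOX(-) over DOX(+), of each tested gene in the roles of the 10 members (coloured) and in 9 related lists (grey); black bars are medians and dotted lines mark 1.5-fold. All members lie between the dotted lines, and the only genes past them are 5 ATF4 and CHOP targets and 2 messages with upstream reading frames. Over all tested genes, 3.11% were higher and 4.06% lower by this rule, and the lists were chosen with earlier results known.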

How the data were processed

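Gene expression was measured by RNA-seq in 2 libraries, 1 per condition. Per the file headers, the authors deposited FPKM values, 1 for each gene in each library. Tools named without roles in the submitters' processing notes are StringTie 1.3.4b, HISAT2 2.1.0, edgeR and CASAVA 1.8, and the build is GRCh38. The sources used here give neither the annotation release nor the strand setting. FPKM hides depth, so library totals were recovered from the steps of FPKM times transcript length in genes with 1 transcript in GENCODE 29, which held 58039 of the 58302 gene IDs. At these totals 99.98% (5561 genes) and 99.97% (5949 genes) of values up to 100 fragments in DOX(-) and DOX(+) came out whole within 0.02 fragment. For a 1 kb transcript, a floor of 3 fragments is 0.181 FPKM in DOX(-) against 0.162 FPKM in DOX(+).

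Levels were compared as log2(FPKM + 1), DOX(-) minus DOX(+), which understates the change of low genes, for genes that reached 1 FPKM in at least 1 library. No p-value was made. Counting intervals of FPKM ratios are 95% Clopper-Pearson intervals, conditional on the total, from fragment numbers estimated with the shortest or longest annotated transcript, and were available for 11508 tested genes. They cover counting error only: without molecular identifiers, fragments may be copies of 1 molecule. The members and lists were chosen with earlier results of these data known. Named genes are the members, EIF2S3, EIF2S1, the PP1 catalytic subunits, MCTS1, DENR and, in each related list, the 4 genes of 2 FPKM or more with the largest absolute log2 ratio. ELANE, MPO, HBB, HBA1, CD79A, MS4A1 and genes overlapping members were named after their values were seen. In the lists, 2 symbols were matched through the gene ID. Alternatives covered the pseudocount, filter, threshold, 5 scalings, gene type and transcript length. The code was tested on simulated data. Python 3.11.15, numpy 2.4.6, pandas 2.3.3 and scipy 1.17.1 were used.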

Additional observations from a re-analysis of the deposited data

How the results depend on the processing

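No replicate of either condition exists, so no value here has an error between cultures, and no paired analysis was possible because each condition has 1 library. No member was past the rule as reported, so no call could be lost or change sign, though calls could be gained. The log2 ratios of single members stayed within their counting intervals on the shortest transcript in 88 of 88 cases. Those intervals are of the plain FPKM ratio rather than of FPKM + 1, and most are wide, so few alternatives could have left them. With equal FPKM totals outside the mitochondrial genome, the log2 ratios of GCN1 (0.13) and EIF2AK1 (0.11) lay below the bounds on the longest transcript. The sign of EIF2A turned in 4 scalings and that of EIF2D in 1. The members' median was between 0.05 and 0.07 under all but one alternative, and -0.02 with equal FPKM totals outside the mitochondrial genome, which moved all genes by -0.07. The count of members at least 1.5-fold higher became 1 (EIF2AK3) with a pseudocount of 0.1 or 0.01 FPKM. It was also 1 when a difference of 25% was enough, a threshold that many genes pass. The log2 ratio of DENR, -0.33, is just past it, and 22.2% of tested genes lay at least as far from 0 in either direction. Intervals that left out 1 numbered 6 on the longest transcripts and 1 on the shortest. Tested genes at least 1.5-fold higher and lower in DOX(-), 358 and 468 as reported, became 631 and 880 with a pseudocount of 0.1 FPKM and 664 and 941 with 0.01 FPKM. They became 520 and 689 of 58302 genes with no filter, and 298 and 609 of 11623 with equal FPKM totals outside the mitochondrial genome. With a filter at 5 FPKM they were 161 and 205 of 5954 genes, and over protein-coding genes only 219 and 277 of 9283. As reported and with both pseudocounts, 11525 genes were tested. Counts under different filters are thus out of different totals. The summed kinase ratio lay between 1.06 and 1.13 under the scalings. No member's symbol is repeated in the table, so summing rows was not run.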
